A study of Mus musculus with 43 samples.

Results

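Cyclic nucleotide cyclases make the second messengers cAMP and cGMP, and phosphodiesterases break them down. The metabolic CRISPR knockout library of this screen targeted 44 genes of these families, chosen by symbol (Adcy, Gucy or Pde followed by its number or letters, with Npr1 and Npr2), of 2078 genes in all. They comprised 20 cyclases or cyclase subunits and 24 phosphodiesterases or phosphodiesterase subunits. Each gene was targeted by 5 sgRNAs, and 250 nontargeting sgRNAs served as controls. Gucy1a3 and Gucy1b3, the library's names, are older symbols of Gucy1a1 and Gucy1b1.

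CD8+ OT-I T cells, whose receptor recognises an ovalbumin peptide, came from Rag2-deficient OT-I mice crossed to Rosa26-Cas9 mice, so that all cells carried Cas9, T0 included. They were transduced in culture with the lentiviral library, which carries the surface marker CD90.1, and transferred into Rosa26-Cas9 mice bearing KPC_OVA, a mouse pancreatic ductal adenocarcinoma line that expresses ovalbumin, in the head of the pancreas. Mice received anti-PD-1 or control IgG, and CD90.1+ T cells were sorted 7 days after transfer from the primary tumour, lung, liver, peritoneal metastases, spleen, and draining and nondraining lymph nodes. T0 was an aliquot of the transduced cells on the day of transfer, and genomic DNA was sequenced at the integrated sgRNA. Values were present for 41 of 43 libraries. There were 3 T0 libraries and 3 for each organ and treatment, except 2 for liver IgG, 2 for peritoneal metastases IgG and 1 for liver anti-PD-1. The single KPC_OVA line and a single T cell specificity limit the model. Titles call the libraries biological replicates, but the labels do not say which mice they came from, so that the p-values measure the spread between these libraries. A peritoneal metastases anti-PD-1 library (replicate 2) carries spleen as its tissue label, against its title, and was used under its title. The libraries are DNA, so that the sorted cell type could not be checked against transcripts.

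In T cells, cAMP activates protein kinase A and Epac and dampens signalling from the T cell receptor. Prostaglandin and adenosine receptors raise cAMP through the membrane adenylyl cyclases (Adcy1 to Adcy9), whereas Adcy10 is the soluble, bicarbonate-sensitive adenylyl cyclase. Nitric oxide activates the soluble guanylyl cyclase, a dimer of Gucy1 subunits, and peptides activate the receptor guanylyl cyclases such as Gucy2c, Npr1 and Npr2. The phosphodiesterase families 4, 7 and 8 hydrolyse cAMP, families 5, 6 and 9 hydrolyse cGMP, and families 1, 2, 3, 10 and 11 hydrolyse both. If loss of an enzyme helps or harms T cell accumulation in an organ, its sgRNAs become more or less abundant there than at transfer, which is what each comparison below asks.

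The change of a gene is given as a log2 difference. The value of a gene in a library was the mean over its 5 sgRNAs of log2(signal + 1), from which the mean of the nontargeting sgRNAs of that library was subtracted. Groups were compared with limma, and a gene was called where its p, adjusted over the 2078 genes by the method of Benjamini and Hochberg, was at most 0.05. A negative change means sgRNAs that were less abundant relative to nontargeting sgRNAs. Errors given with a change are standard errors of that fit unless SD is named. All comparisons against T0 share the same 3 T0 libraries.

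At transfer, the members were covered about as well as the library. The median T0 signal of their 220 sgRNAs was 280.6, against 295.4 over all gene-targeting sgRNAs, and no member sgRNA lay below 109.9. The median SD of a member over the 3 T0 libraries was 0.15. It was 0.41 in tumour IgG and 0.34 in tumour anti-PD-1 and was 1.21 in lung IgG and 0.93 in lung anti-PD-1. For each sgRNA, the lowest signal was taken among the libraries of the same replicate number. A library counted as at this shared lowest value where another library of that number held it too. Such values made up 0% of member sgRNAs at T0, at most 0.909% in the primary tumour, 4.09% to 40% in lung and 40% to 90% in the lymph nodes. The lymph nodes were therefore fitted apart. As a yardstick, Pik3cd, which encodes a phosphoinositide 3-kinase subunit, had a change of 1.49 to 4.33 in the 10 groups outside the lymph nodes and was called in 8 of them, and the median of 20 ribosomal protein genes lay between -5.94 and -5.04.

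Outside the lymph nodes, 3 members were called against T0, all of them phosphodiesterases and all of them in lung. In lung IgG, 1 of 44 members was called, Pde6g, beside 17.9% of all genes. In lung anti-PD-1, 2 of 44 were called, Pde7b and Pde4c, beside 18.1% of all genes. No member was called in tumour IgG (14.3% of all genes), tumour anti-PD-1 (14.6%), spleen IgG (13.9%), spleen anti-PD-1 (14.4%), liver IgG (13.3%), liver anti-PD-1 (9.87%), peritoneal metastases IgG (13.7%) or peritoneal metastases anti-PD-1 (15.4%). At an unadjusted p under 0.05, between 0 and 4 members passed in each of the 10 groups (0% to 9.09%), beside 14.8% to 26.3% of all genes. No cyclase passed the adjusted threshold in any organ. Most genes called in the library had fewer sgRNAs than at T0, for example 297 lower and 0 higher in tumour IgG, and 337 lower and 35 higher in lung IgG.

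**Figure D1:**
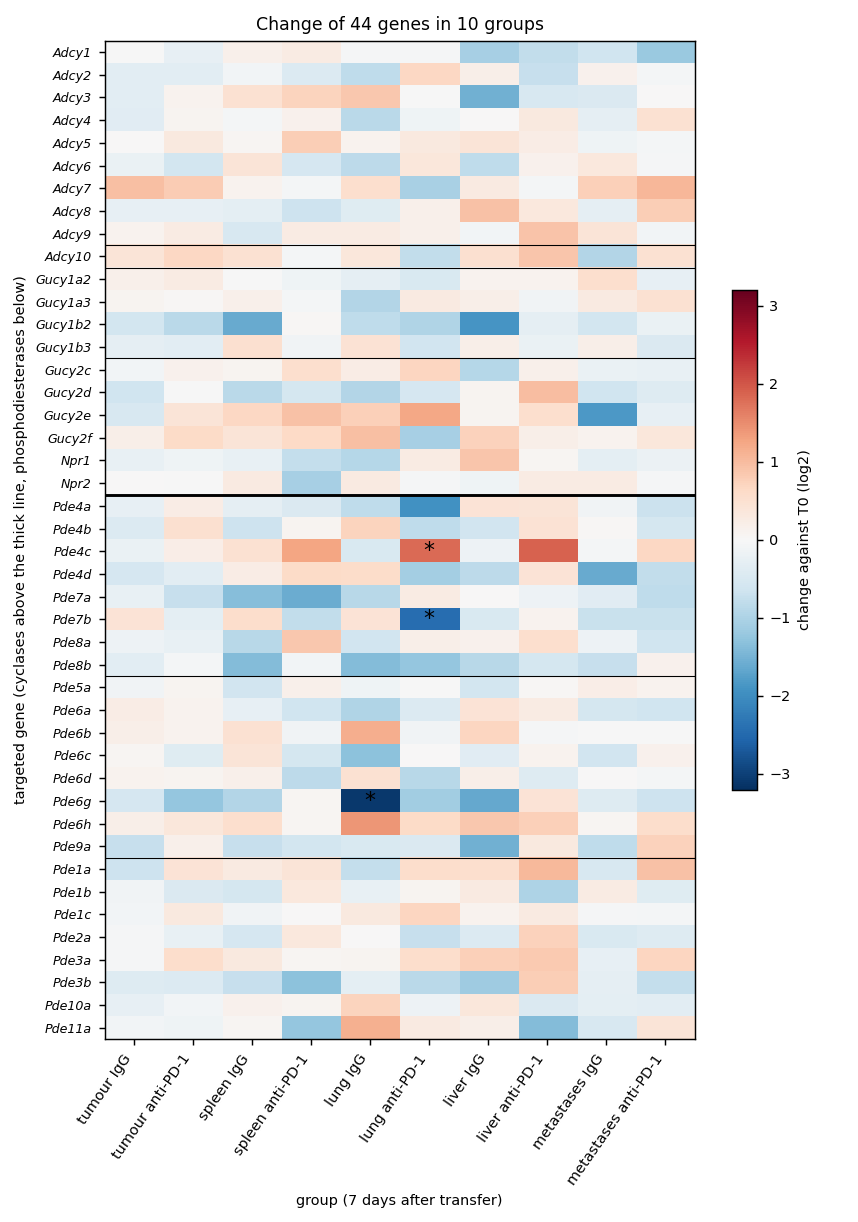
Log2 change against T0 of the 44 members (rows, cyclases above the thick line and phosphodiesterases under it) in the 10 groups outside the lymph nodes (columns), with colour for the change and an asterisk for an adjusted p of at most 0.05. The 3 asterisks stand in lung, at Pde6g under IgG and at Pde7b and Pde4c under anti-PD-1.

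Pde7b encodes a cAMP-specific phosphodiesterase. In lung anti-PD-1 its sgRNAs fell: the 3 libraries were at -2.29, -2.62 and -2.38 relative to the T0 mean, whereas the T0 libraries were at -0.04, -0.02 and 0.06. In lung IgG the libraries were at 1.10, 0.94 and -0.75. Every lung anti-PD-1 library thus lay below every lung IgG and every T0 library. The change against T0 was -2.43 ± 0.65 (adjusted p = 0.00481, limma), and the change under anti-PD-1 against IgG in lung was -2.86 ± 0.65 (adjusted p = 0.0179). Both calls held without each library in turn. The call of Pde7b against IgG was lost as deposited (adjusted p = 0.0698), with all 41 libraries in 1 fit (0.197), with only the compared groups (0.740) and with library weights per group (0.761).

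The fall of Pde7b was carried by 3 of its 5 sgRNAs. Their mean changes in lung anti-PD-1 were -5.86, -3.93 and -5.38, and the others were at 1.56 and 1.47. The sgRNAs of this gene therefore moved in opposite directions. With the median over sgRNAs in place of the mean, both calls for Pde7b held. As 3 of 5 sgRNAs were low, the median largely leaves the others out, so that it does not test their disagreement.

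In other organs the values of Pde7b were closer to T0. Spleen anti-PD-1 libraries were at -0.21, -0.53 and -1.61, below the spleen IgG libraries at 0.42, 0.44 and 0.82. That spleen difference of -1.35 ± 0.65 had an unadjusted p of 0.046 and an adjusted p of 0.642. The tumour difference was -0.74 ± 0.65, and in peritoneal metastases it was -0.01 ± 0.73. Pde7b was thus lower under anti-PD-1 in 4 of 5 organs and higher in 1, the liver. The test of whether the treatment difference of Pde7b varied among the 5 organs gave an adjusted p of 0.901 (limma's moderated F-test).

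Pde4c encodes a member of the PDE4 family, which degrades cAMP in many cell types. In lung anti-PD-1 its sgRNAs rose: the libraries were at 1.53, 1.88 and 2.03 relative to the T0 mean, against -0.06, 0.00 and 0.06 in the T0 libraries. Lung IgG libraries were at 1.22, -2.30 and -0.38. All lung anti-PD-1 libraries lay above all lung IgG libraries, although the IgG libraries spanned a wider range than the difference. The change against T0 was 1.81 ± 0.62 (adjusted p = 0.0349), which ranked 8 from the top among 2078 genes. All 5 sgRNAs were higher, with mean changes of 1.24, 1.85, 3.42, 1.82 and 0.73.

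Against IgG in lung, Pde4c was higher by 2.30 ± 0.62 (adjusted p = 0.0302), with 4 of 5 sgRNAs in that direction. This call rested on single libraries. Without lung IgG replicate 2, the lowest of its group, the difference was 1.39 (adjusted p = 0.155), and without lung anti-PD-1 replicate 2 or 3 the adjusted p was 0.0595 or 0.0664. It was lost as well with a pseudocount of 10, the median over sgRNAs, a filter on low sgRNAs, other sets of fitted libraries or library weights (adjusted p of 0.0522 to 0.775). The call of Pde4c against T0 was lost without any T0 replicate, and also without replicate 2 or 3 of lung anti-PD-1 (adjusted p of 0.0736 to 0.0962). It was also lost as deposited, where the change was 0.43 (adjusted p = 0.543), around the nontargeting median, where it was 0.99 (0.235), and around the median of all sgRNAs (0.103), with the median over sgRNAs (0.429), with the filter on low sgRNAs (0.157) and with all 41 libraries in 1 fit (0.181).

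Pde4c was higher under anti-PD-1 than under IgG in 5 of 5 organs outside the lymph nodes, as were other members named below. The share of all genes that did so was not counted. In spleen, anti-PD-1 libraries were at 0.81, 1.75 and 1.26 and IgG libraries at 0.75, 0.74 and -0.04, so that the groups did not overlap. In tumour, anti-PD-1 libraries were at 0.08, -0.58 and 1.14 and IgG libraries at -0.04, -0.29 and -0.33, which overlapped. The liver anti-PD-1 library was at 1.90 and the liver IgG libraries at -0.05 and -0.30. In peritoneal metastases, anti-PD-1 libraries were at 0.36, 0.35 and 1.25 and IgG libraries at -0.64 and 0.49, which overlapped. The differences were 0.79 ± 0.62 in spleen, 0.43 ± 0.62 in tumour, 2.07 ± 0.92 in liver and 0.73 ± 0.69 in peritoneal metastases. None of these passed the threshold within its organ.

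**Figure D2:**
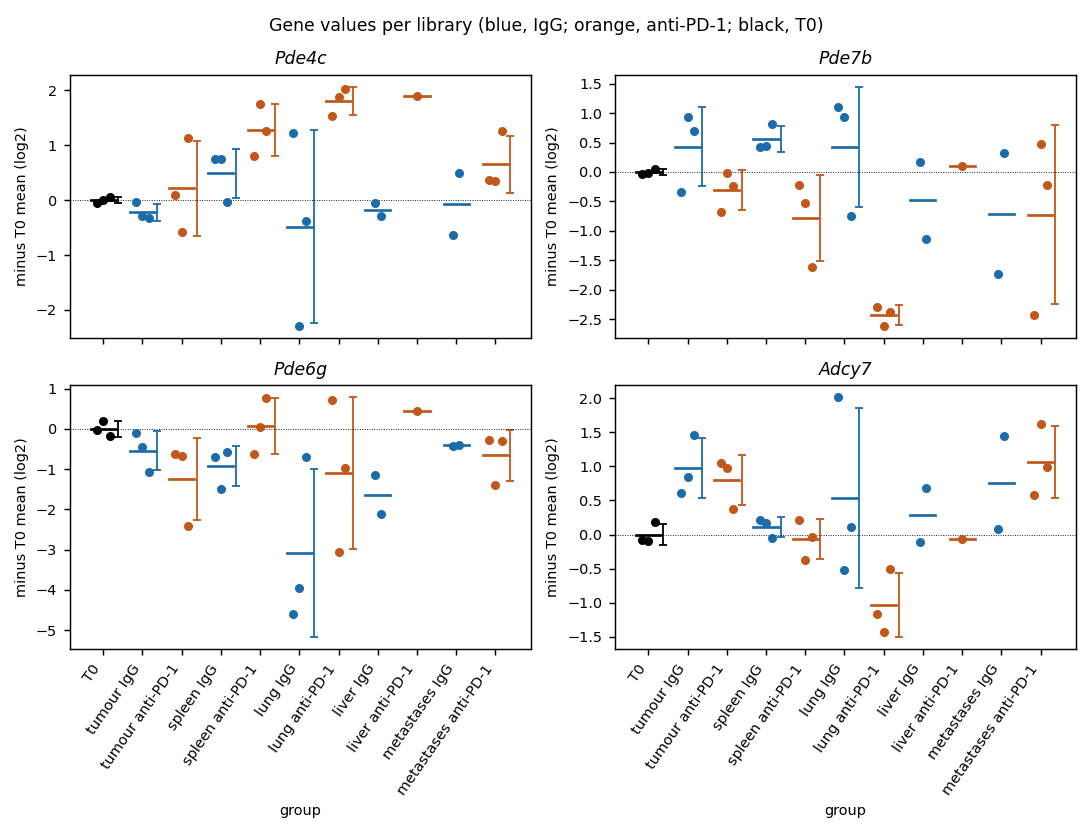
Values of Pde4c, Pde7b, Pde6g and Adcy7 in each library relative to the T0 mean (vertical axis, log2), by organ and treatment, with the group mean as a bar and the SD as an error bar where a group has 3 libraries. Pde7b in lung anti-PD-1 lies between -2.62 and -2.29, and Pde4c there between 1.53 and 2.03.

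A comparison added after seeing these values averaged the treatment difference over the 5 organs. Pde4c was called in it, at 1.26 ± 0.31 (adjusted p = 0.0336), as 1 of 44 members beside 1.35% of all genes. Averaged over the 4 organs without lung, it was 1.01 ± 0.36 (adjusted p = 0.311), and no member was called beside 0.144% of all genes. The average over 5 organs, at 1.06 to 1.26, was no longer called (adjusted p of 0.0501 to 0.102) without tumour IgG replicate 2 or 3, tumour anti-PD-1 replicate 3, spleen IgG replicate 3, liver IgG replicate 3, peritoneal metastases IgG replicate 2 or peritoneal metastases anti-PD-1 replicate 3. The same held without liver anti-PD-1 replicate 3, where the liver had no treatment difference and the average ran over the other organs.

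Pde6g encodes the small inhibitory gamma subunit of the rod photoreceptor phosphodiesterase PDE6, and is no catalytic enzyme. In lung IgG its sgRNAs fell: the libraries were at -4.61, -3.94 and -0.71 relative to the T0 mean, below the T0 libraries at -0.03, 0.21 and -0.17. The change was -3.09 ± 0.78 (adjusted p = 0.00294), and all 5 sgRNAs were lower, with mean changes of -3.69, -3.83, -1.05, -3.04 and -3.84. Lung anti-PD-1 libraries were at 0.71, -3.05 and -0.97, which overlapped with the IgG libraries. The treatment difference of Pde6g in lung, 1.98, was not called. The call against T0 held without each library in turn.

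**Figure D3:**
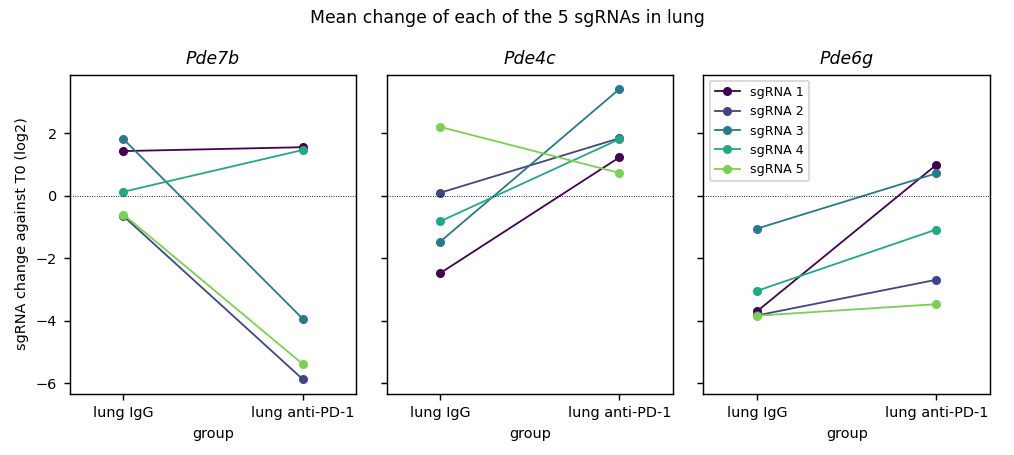
Mean log2 change against T0 (vertical axis) of each of the 5 sgRNAs of Pde7b, Pde4c and Pde6g in lung IgG and lung anti-PD-1. The sgRNAs of Pde6g under IgG all lie below 0 and those of Pde4c under anti-PD-1 all above 0, whereas those of Pde7b under anti-PD-1 lie at 1.56 and 1.47 or between -5.86 and -3.93.

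Over all groups outside the lymph nodes, lung IgG included, Pde6g was negative in 8 of 10, with changes of -1.24 in tumour anti-PD-1 (libraries at -0.63, -0.67 and -2.42) and -1.63 in liver IgG (libraries at -1.15 and -2.11). These did not pass the threshold, and neither did the mean of its 10 groups, -0.91. The other PDE6 subunit genes lay on both sides of T0 in lung IgG, and none of them was called. Pde6h, which encodes the cone gamma subunit, was at 1.40 ± 0.52 there (libraries at 1.09, 1.70 and 1.42, adjusted p = 0.0606) and positive in 10 of 10 groups. The catalytic subunit genes were at -0.95 (Pde6a), 1.15 (Pde6b) and -1.32 (Pde6c), and Pde6d, whose product carries prenylated proteins, was at 0.49. Of the 7 genes listed as photoreceptor enzymes (Pde6a, Pde6b, Pde6c, Pde6g, Pde6h, Gucy2e and Gucy2f), Pde6g was the only one called, and their median in lung IgG was 0.75 against -0.24 for all genes.

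Adcy7 encodes the main membrane adenylyl cyclase of lymphocytes. Its sgRNAs were above the T0 mean in each of the 11 libraries of primary tumour and peritoneal metastases. Tumour IgG libraries were at 0.61, 0.85 and 1.46 relative to the T0 mean, and tumour anti-PD-1 libraries at 1.04, 0.98 and 0.38. The T0 libraries were at -0.09, -0.10 and 0.18, so that none overlapped with either tumour group. The share of all genes without such overlap was not counted. Members spread less between the T0 libraries (median SD 0.15) than in tumour IgG (0.41) or tumour anti-PD-1 (0.34). In peritoneal metastases, IgG libraries were at 0.08 and 1.44, of which the lower lay within the T0 range, and anti-PD-1 libraries were at 0.58, 1.63 and 0.99, all above it.

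The changes of Adcy7 did not pass the threshold. They were 0.97 ± 0.56 in tumour IgG (adjusted p = 0.517), rank 4 from the top among 2078 genes, 0.80 ± 0.56 in tumour anti-PD-1 (adjusted p = 0.813), 0.76 in peritoneal metastases IgG (adjusted p = 0.847) and 1.07 ± 0.56 in peritoneal metastases anti-PD-1 (adjusted p = 0.348). In each of these 4 groups, 5 of 5 sgRNAs were higher than at T0, and the share of all genes for which this held was not counted. When the tumour was fitted with T0 alone, which leaves the wider spread of the other organs out, the adjusted p was 0.0193 under IgG and 0.0467 under anti-PD-1. With library weights estimated per group it was 0.00125 and 0.0206. Both settings also raised the calls against T0 over all genes outside the lymph nodes, from 3023 to 4623 and 3921. With all 41 libraries in 1 fit, the adjusted p of Adcy7 was 0.99995 under IgG and 0.9997 under anti-PD-1. Without tumour IgG replicate 3, its change in tumour IgG was 0.73 (adjusted p = 0.9998). The call of Adcy7 in the tumour thus depended on which libraries set the spread.

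In spleen and lung, Adcy7 lay on both sides of T0. Spleen IgG libraries were at 0.22, 0.16 and -0.05, and spleen anti-PD-1 libraries at 0.21, -0.38 and -0.03. Lung IgG libraries spread from -0.52 to 2.01, and lung anti-PD-1 libraries were at -1.17, -1.43 and -0.51, all below T0, for a change of -1.03. The test among the 5 organs gave an adjusted p of 0.511 for Adcy7. No member was called among organs, beside 0.433% of all genes, and no gene was called for a treatment difference that varied among organs (0% of all genes, 3 members and 103 genes at an unadjusted p under 0.05).

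The other membrane adenylyl cyclases stayed between -1.55 and 0.94 in the 10 groups outside the lymph nodes. Adcy3, the calcium-regulated isoform best known from olfactory neurons and also present in T cells, had the lowest of these values, in liver IgG, and Adcy8, a calcium-stimulated neuronal isoform, the highest, in the same group. Adcy1, another calcium-stimulated neuronal isoform, was at -1.20 in peritoneal metastases anti-PD-1, the lowest member there. Adcy9, an isoform present in many tissues, was at 0.92 in liver anti-PD-1. None of these passed the threshold.

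Adcy10 was taken by the study into a later single-cell knockout library on the strength of these samples, so that its values here are not independent evidence of its direction. Tumour anti-PD-1 libraries were at -0.03, 0.86 and 1.18 relative to the T0 mean, and tumour IgG libraries at 0.82, -0.01 and 0.43. Each treatment thus held 1 library at the T0 mean. The change was 0.67 ± 0.58 under anti-PD-1 (adjusted p = 0.9995), rank 38 from the top, with 3 of 5 sgRNAs higher, and 0.42 under IgG. Over the 10 groups Adcy10 was positive in 7, from -0.94 in peritoneal metastases IgG to 0.89 in liver anti-PD-1. In peritoneal metastases the treatment difference was 1.43 ± 0.65 (unadjusted p = 0.0345, adjusted p = 0.898).

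The sequences of the 5 measured Adcy10 sgRNAs were not used here. The study's later library targeted the same gene with the sgRNAs that follow, shown 5′ to 3′ because they place that library's knockout in the gene. They were newly designed, so that they do not place the sites measured here. On GRCm38.p6, Adcy10 lies on the plus strand at chr1:165483518-165576778 by RefSeq. Capitals mark the PAM next to each site, and each sgRNA had 1 exact match with a PAM on the assembled chromosomes. Unplaced scaffolds and sites with mismatches were not searched. The protospacer of gRNA1 lies at chr1:165521807-165521826 on the plus strand and that of gRNA2 at chr1:165510279-165510298 on the minus strand. Each lies in a coding exon, and an exon of 5 of 6 RefSeq transcripts overlaps it. The protospacer of gRNA3 lies at chr1:165543313-165543332 on the minus strand and overlaps in part with a coding exon. An exon of 6 of 6 transcripts overlaps it, and in how many of these each site is coding was not counted.
Adcy10 gRNA1: aggatgatgatgtactacccGGG
Adcy10 gRNA2: ttcatccccaaagaccaacaTGG
Adcy10 gRNA3: ctcacgagtcgagctctctgGGG

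Among guanylyl cyclases, no change was called. Gucy1b2, a beta subunit of the nitric oxide-sensitive enzyme family, was negative in 9 of 10 groups. Its libraries were at -1.44, -2.21 and -1.20 in spleen IgG and at -1.78 and -2.01 in liver IgG, all below T0. The changes were -1.62 (adjusted p = 0.220) and -1.90 (adjusted p = 0.185). Without the 10% of sgRNAs lowest at T0, the sign of Gucy1b2 in spleen IgG turned, to 0.37. The other subunits Gucy1a2, Gucy1a3 and Gucy1b3 lay between -0.93 and 0.55 in all 10 groups.

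Gucy2e, a receptor guanylyl cyclase of photoreceptors, had the smallest adjusted p of the members in the test among organs (0.102). Its libraries were at -2.50 and -1.16 in peritoneal metastases IgG, against 2.03, 0.51 and 1.16 in lung anti-PD-1 and -0.75, 2.11 and 1.48 in spleen anti-PD-1. Peritoneal metastases IgG lay below both of these groups, which differed from it in treatment as well as in organ. The test among organs averaged both treatments of each organ, and Gucy2e was higher under anti-PD-1 in 5 of 5 organs. The change there was -1.83 ± 0.69 (adjusted p = 0.0834) and in lung anti-PD-1 1.23 (adjusted p = 0.202). Without spleen anti-PD-1 replicate 1, the lowest of its group, Gucy2e passed the threshold among organs, and its change in peritoneal metastases IgG was called (adjusted p = 0.0412). Without peritoneal metastases IgG replicate 2 that change was -1.16 (adjusted p = 0.762), without the 10% of sgRNAs lowest at T0 it was -0.95, and with the median over sgRNAs it was -0.50. Gucy2f, its photoreceptor relative, was lower in lung under anti-PD-1 than under IgG by a difference of -2.02 ± 0.64 (adjusted p = 0.0663). Gucy2c, Gucy2d, Npr1 and Npr2 were between -1.05 and 0.997 in the 10 groups.

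The phosphodiesterases that hydrolyse cAMP went both ways, and apart from Pde7b and Pde4c none was called. Pde3a, the cardiovascular relative of Pde3b, was positive in 8 of 10 groups, Pde1a in 7 and Pde4b in 5. The median of all genes was itself negative in 9 of 10 groups. Pde7a, an isoform induced on T cell activation, was at -1.36 in spleen IgG and -1.59 in spleen anti-PD-1, the lowest member in the latter group. Pde8b was negative in 9 of 10 groups, at -1.39 in spleen IgG (adjusted p = 0.217) and -1.39 in lung IgG. Pde3b, which cGMP inhibits, was negative in 9 of 10 groups and lowest in spleen anti-PD-1, at -1.30 (adjusted p = 0.213). Pde4a was at -1.93 ± 0.72 in lung anti-PD-1 (adjusted p = 0.0592), and Pde4d at -1.61 in peritoneal metastases IgG (adjusted p = 0.166).

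The list of T cell enzymes held 11 members (Adcy3, Adcy7, Adcy9, Pde1b, Pde2a, Pde3b, Pde4a, Pde4b, Pde4d, Pde7a and Pde8a). None of them was called in any comparison. Their median change was -0.25 in tumour IgG and -0.24 in tumour anti-PD-1, beside -0.16 and -0.12 for all genes. It was -0.74 in lung anti-PD-1 and -0.57 in peritoneal metastases anti-PD-1, beside -0.26 and -0.21 for all genes, and 0.25 in spleen anti-PD-1 and 0.44 in liver anti-PD-1, beside -0.21 and 0.00. The 8 genes of families 4, 7 and 8 had a median of -0.95 in lung anti-PD-1, between Pde7b at -2.43 and Pde4c at 1.81, and -0.66 in peritoneal metastases anti-PD-1.

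As classes, cyclases and phosphodiesterases had similar medians. In the primary tumour the cyclase median was -0.15 under IgG and 0.05 under anti-PD-1, and the phosphodiesterase median was -0.13 and 0.01, beside -0.16 and -0.12 for all genes. The difference, cyclase minus phosphodiesterase, was -0.02 and 0.04. Outside the lymph nodes it was largest in spleen IgG, 0.29, where cyclases were at 0.10 and phosphodiesterases at -0.19, and in lung IgG, 0.22, where they were at 0.04 and -0.19. In spleen anti-PD-1 it was -0.10 and in liver anti-PD-1 -0.16. The value of a group comes from the members' means over its libraries and can lie outside the values of single libraries, which were 0.08, 0.45 and 0.14 in spleen anti-PD-1. The per-library SD of this difference within groups was 0.21, so that it exceeded 1 SD in spleen IgG and lung IgG. Without spleen IgG replicate 3 the spleen IgG difference was 0.0943. The single lung IgG libraries were at 0.27, 0.30 and 0.31, but without lung IgG replicate 1 or 2 the difference of the remaining pair was -0.20 or -0.17.

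**Figure D4:**
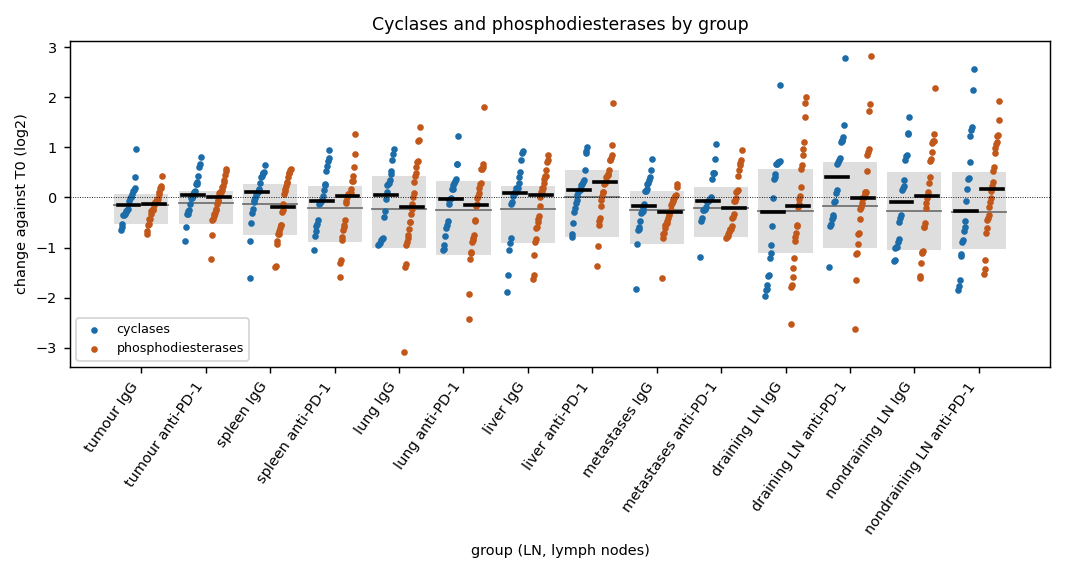
Log2 change against T0 (vertical axis) of each cyclase and phosphodiesterase (dots) in the 14 groups, with the class median as a black bar and the median and interquartile range of all library genes as a grey line and box. Class medians outside the lymph nodes lie between -0.30 and 0.31, and single members spread more widely in lung and in the lymph nodes than in the tumour.

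Single members spread around the class medians. The SD over the 44 changes was 0.33 in tumour IgG and 0.85 in lung IgG, and reached 1.20 in the lymph nodes. The sgRNAs of a member also spread, with a median SD over its 5 sgRNAs of 0.54 in tumour IgG, 1.51 in lung IgG and 2.37 in draining lymph nodes anti-PD-1. The lung calls of Pde6g, Pde7b and Pde4c thus stood in an organ where both the libraries and the sgRNAs spread widely. With only the compared groups fitted by limma, so that their libraries alone set the spread, neither treatment call held (adjusted p = 0.740 for Pde7b and for Pde4c). Against T0, Pde7b (0.00218) and Pde4c (0.0110) were still called in that setting, and Pde6g (0.0625) was not. The part of the spread between sgRNAs in the calls was not tested. In the mean of the 10 groups, a comparison added after seeing the data, no member was called beside 16.3% of all genes. The extremes there were Pde4c at 0.54 and Pde6g at -0.91.

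The comparison of anti-PD-1 with IgG asks which knockouts depend on checkpoint blockade. In lung, 2 of 44 members were called, Pde7b and Pde4c, beside 3.56% of all genes. These were 74 genes, 25 higher and 49 lower. That split depended on centring, with 26 higher and 9 lower around the nontargeting median, 33 and 9 around the median of all sgRNAs, and 32 and 2 as deposited. At an unadjusted p under 0.05, 12 members passed, beside 21.0% of all genes. No member was called in the primary tumour, spleen, liver or peritoneal metastases, and no gene was (0% of all genes in each). By unadjusted p under 0.05 these comparisons held 14, 161, 93 and 107 genes, and 0, 5, 2 and 3 members.

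The members farthest apart between the treatments differed by organ. In tumour they were Pde1a (1.11), a calcium- and calmodulin-dependent phosphodiesterase, and Pde7b (-0.74). In spleen they were Pde8a (1.75), a cAMP phosphodiesterase, and Pde7b (-1.35). In liver they were Pde4c (2.07) and Pde11a (-1.57), a dual-specificity enzyme, and in peritoneal metastases Gucy2e (1.57) and Gucy1a2 (-0.81). Pde1a was higher under anti-PD-1 in 5 of 5 organs, with an average of 0.90 ± 0.29 (adjusted p = 0.119), and so was Pde9a, a cGMP phosphodiesterase, with 0.89 ± 0.36 (adjusted p = 0.211). Adcy4, Gucy2d, Gucy2e and Pde8b were also higher in 5 of 5 organs, and Gucy1b3, Pde6b and Pde6d lower in 5 of 5. The shares of all genes that were higher or lower in each of these organs were not counted.

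In the lymph nodes no gene was called against T0 in any of the 4 groups (0% of all genes in draining and nondraining nodes under IgG and under anti-PD-1, by limma), and 2, 3, 0 and 1 members passed an unadjusted p under 0.05, among 212, 234, 146 and 126 genes. No gene was called between the treatments in draining or nondraining nodes (0% of all genes in each), where 249 and 243 genes and 7 and 8 members passed an unadjusted p under 0.05.

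Against T0, the highest and lowest members were Adcy2 (2.24) and Pde1c (-2.53) in draining nodes under IgG, and Pde1c (2.83) and Pde1b (-2.62) under anti-PD-1. In nondraining nodes they were Pde6h (2.18) and Pde3b (-1.61) under IgG, and Adcy7 (2.57) and Gucy1b2 (-1.84) under anti-PD-1. Under IgG and under anti-PD-1 the extremes were thus different genes, apart from Pde1c, which stood at opposite ends in the draining nodes.

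Pde1c, a calcium- and calmodulin-dependent phosphodiesterase, had the largest treatment difference of all 2078 genes in the draining lymph nodes. IgG libraries were at -2.18, -2.08 and -3.33 relative to the T0 mean, and anti-PD-1 libraries at 2.41, 1.74 and 4.35. The groups lay on either side of T0, but as deposited both changes were below it, at -7.50 under IgG and -2.23 under anti-PD-1. The difference was 5.36 ± 1.07 (adjusted p = 0.0557), with 5 of 5 sgRNAs in that direction. The adjusted p was between 0.00968 and 0.0466 without draining IgG replicate 1, draining anti-PD-1 replicate 1 or 2, nondraining anti-PD-1 replicate 1 or 3 or any nondraining IgG replicate, and between 0.0607 and 0.146 without any other library. With all 41 libraries fitted together it was 0.000175, and around the nontargeting median 0.341. With the median over sgRNAs the difference was 3.12 (adjusted p = 0.559). In nondraining nodes the difference of Pde1c was 0.95 ± 1.07. Between 40% and 90% of member sgRNAs were at the shared lowest value in these libraries, and the part of this in the difference was not tested.

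In the nondraining nodes the highest and lowest members between the treatments were Adcy7 (3.82 ± 1.05, adjusted p = 0.224) and Pde6h (-3.70, adjusted p = 0.304). Adcy2 was at 3.40 (adjusted p = 0.234). In the draining nodes the lowest was Pde1b (-3.58, adjusted p = 0.181), another calcium- and calmodulin-dependent phosphodiesterase. Adcy3 was at 2.996 in draining and -2.78 in nondraining nodes. Against T0, the class difference, cyclase minus phosphodiesterase, ranged from -0.45 in nondraining anti-PD-1 to 0.43 in draining anti-PD-1, within the per-library SD of 0.54. Between the treatments it was 0.59 in draining and -0.35 in nondraining nodes. That SD is of single libraries against T0 and does not give the spread of a difference between treatments. With the median over sgRNAs the draining value between treatments was -0.0713.

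Of 25 other genes of the pathway that were listed, such as receptors, kinases, nucleotidases and nitric oxide synthases, the library held 9 (Enpp1, Nt5e, Entpd1, Ada, Adk, Nos1, Nos2, Nos3 and Hmox1). Against T0, 1 of 9 was called in any group, Nos3, the endothelial nitric oxide synthase, at 1.54 ± 0.54 in lung IgG (adjusted p = 0.0428), where 17.9% of all genes were called. In lung anti-PD-1 Nos3 was at -0.0963.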

How the data were processed

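The study sequenced sgRNAs integrated in genomic DNA of sorted CD90.1+ OT-I T cells. The authors counted reads with MAGeCK-VISPR, normalized to the 250 nontargeting sgRNAs and corrected batches between organs with ComBat, and deposited 1 signal per sgRNA (10640) and library (41). Because these values are fractional, they were not tested as counts, and neither depth nor counting error can be given. ComBat may have altered differences between organs. Genome build and settings of this screen are not given in the sources used here. Libraries were grouped by their labels.

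The members and lists were chosen with earlier results of these data known. limma 3.58.1 in R 4.3.3 fitted 1 mean per group to the gene values, on 29 libraries outside the lymph nodes and on 15 with the lymph nodes and T0, with Benjamini-Hochberg adjustment over 2078 genes. Scripts were tested on simulated data. Named were members called in any comparison, the highest and lowest member of each comparison, the T cell enzymes, the photoreceptor enzymes as a group, and Adcy10. Others named for a recurring sign or family were chosen after their values were seen. Alternatives changed the pseudocount, the summary over sgRNAs, the centring, the filter, the libraries fitted, their weights and the replicate block.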

Additional observations from a re-analysis of the deposited data

How the results depend on the processing

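Precision is limited by the number of libraries and by sgRNAs at the shared lowest value, most of all in the lymph nodes. The calls of Pde7b and Pde6g against T0 in lung held under the 3 centrings tried beside the one used, and the call of Pde6g was lost when lung IgG and T0 were fitted alone (adjusted p = 0.0625). Centring moved whole comparisons: around the nontargeting median the median of all genes shifted by -1.19 in lung IgG, by -0.82 in lung anti-PD-1 and by 1.64 to 2.34 in the lymph nodes. Against the 3 members called versus T0 outside the lymph nodes, there were 5 with the median over sgRNAs, 20 around the nontargeting median, 8 around the median of all sgRNAs, 64 as deposited, 31 with only the compared groups fitted, 17 with library weights and 2 to 5 with a single library left out. Over all genes, 3023 calls in these groups became 1826, 3678, 3044, 5596, 4623 and 3921 under the first 6 of these. Without the lung groups, which hold all 3 calls, 4 others were called: Gucy1b2 in spleen IgG, and Adcy3, Gucy1b2 and Pde6g in liver IgG. In the lymph nodes, 0 became 172 as deposited, where 8155 calls over all genes show that nearly every gene was called, and 1 with only the compared groups (Pde1c, draining IgG). Against the 2 members called between treatments, there was 1 with a pseudocount of 10, with the median over sgRNAs, as deposited or without the 10% of sgRNAs lowest at T0, 8 with all 41 libraries in 1 fit, all of them in lymph nodes, 0 with only the compared groups or with weights, and 1 to 4 with a single library left out. Over all genes, 74 calls between treatments became 39, 51, 34 and 83 under the settings that left 1 member. They became 245 with all 41 libraries, 4 with only the compared groups and 2 with weights. Among organs, 0 became 1 around either median (Adcy7), 6 as deposited, and 0 to 1 with a single library left out. Over all genes, 9 calls among organs became 77 around the nontargeting median, 68 around the median of all sgRNAs and 300 as deposited. In the mean of the 10 groups, 0 became 7 as deposited and 6 with weights, where 338 calls over all genes became 673 and 699. The call of Pde4c averaged over 5 organs went from 1 to 0 with the median over sgRNAs, around the median of all sgRNAs, as deposited, without the lowest 10% of sgRNAs and with all 41 libraries, and was 0 to 1 with a single library left out. Over all genes, 28 calls in that average became 1, 11, 8, 32 and 2 under the settings that lost Pde4c, in the order given.

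Libraries of the same replicate number did not deviate together in the deposited values. The correlation of same-numbered deviations had a median of -0.01 over 118 pairs outside the lymph nodes (-0.36 to 0.27). It was -0.06 over 30 pairs with the lymph nodes. The values were corrected for batches before deposit, so that this cannot show whether the libraries were paired in the experiment. With the replicate block, 4 members were called against T0 outside the lymph nodes in place of 3, the added one being Pde4a in lung anti-PD-1.

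Of 263 alternative values of the 21 class differences (cyclase minus phosphodiesterase), 241 moved by less than the spread between libraries. With the median over sgRNAs the difference was 0.26 in tumour anti-PD-1, 0.0582 in liver anti-PD-1 and, between treatments, 0.28 in tumour, -0.29 in spleen, -0.28 in lung, 0.18 in liver and -0.0713 in draining nodes. Without the lowest 10% of sgRNAs it was 0.17 in spleen anti-PD-1, -0.0095 in lung IgG and, between treatments in lung, 0.38. With a single library left out it ran from -0.0891 to 0.27 in spleen anti-PD-1, -0.20 to 0.30 in lung IgG, -0.11 to 0.21 in peritoneal metastases anti-PD-1 and -0.78 to 0.0868 in draining IgG, and between treatments from -0.27 to 0.17 in spleen, -0.0536 to 0.53 in lung, -0.11 to 0.12 in peritoneal metastases and -1.04 to -0.23 in nondraining nodes.

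Of 1720 alternative values of the 48 named changes, 1706 kept their direction. As deposited, the sign turned for Gucy2e in spleen IgG (-0.11), Pde6h in lung IgG (-0.53), Adcy8 in liver IgG (-0.20), Adcy2 in draining IgG (-2.73), Pde1c in draining anti-PD-1 (-2.23), Pde6h in nondraining IgG (-3.52), Adcy7 in nondraining anti-PD-1 (-3.02) and Pde4c in the mean of 10 groups (-0.46). It also turned for Gucy1b2 in spleen IgG without the lowest 10% of sgRNAs (0.37), for Pde3b in nondraining IgG around the nontargeting median (0.0346) and the median of all sgRNAs (0.22), and for Gucy1b2 in nondraining anti-PD-1 around the latter (0.12). With a single library left out, Adcy8 in liver IgG ran from -0.15 to 2.02, and Gucy1a2 between treatments in peritoneal metastases from -1.32 to 0.0395. The cause of these moves was not tested. Between treatments in liver, a fit of only these groups, with 2 and 1 libraries, was not run, and leaving out the lone anti-PD-1 library leaves no difference.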
